A study of Mus musculus with 4 samples.

Results

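The Hox genes are homeobox transcription factors, and the 39 mouse members were taken from the table of 56691 genes as every symbol made of Hox, a cluster letter from a to d and a paralog number. They fall into 4 clusters, with 11 genes in cluster A, 10 in cluster B, 9 in cluster C and 9 in cluster D. RNA-seq was performed on 4 sarcomas from W/+ mice, 2 from ATO-treated mice (ATO 1 and ATO 2) and 2 from control mice (Ctl 1 and Ctl 2). The mice of both groups carried 1 mutant and 1 wild-type p53 allele, written R282W in the labels by the human residue and R279W for the mouse protein, in the C57BL/6N background. ATO is arsenic trioxide, which the treated mice of the survival study drank with their water (35 mg per L) from the age of 90 days, and the control samples are labelled PBS. The age at sampling, the body site and the histological type of each sarcoma are not given in the sources used here. An adipogenic growth protocol for cultured cells stands in the labels of all 4 samples and is not described for the sarcomas in the paper. The labels also name a SMARTER kit, where the paper's methods name a TruSeq kit. Each value is that of 1 tumor sample, the sources used here do not say whether each came from a separate mouse, and in such bulk samples fewer cells of a type and less RNA per cell cannot be told apart.

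Hox genes give cells along the body their position. Within a cluster the genes lie in the order in which they act from head to tail, with low paralog numbers toward the head and high numbers in the trunk, the distal limbs and the tail. Genes with the same number in different clusters are paralogs of one ancestral gene and share part of their function. Fibroblasts and other mesenchymal cells keep much of this pattern in the adult, whereas mesenchyme that the cranial neural crest forms in the face and the first pharyngeal arch develops without Hox expression. The comparison asked which Hox genes each sarcoma transcribed, how far along the clusters transcription reached, and whether ATO and Ctl sarcomas differed.

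On GRCm38 the clusters span chr6:52155590-52260880 (A), chr11:96194316-96368256 (B), chr15:102921103-103036852 (C) and chr2:74668310-74765142 (D). All genes of cluster A lie on the minus strand and all genes of the other clusters on the plus strand. By the GENCODE M21 annotation 23 of the 39 genes overlap another annotated gene, 15 on the same strand and 14 on the opposite strand. Whether reads were counted by strand, and how reads over both genes of a pair were treated, is not stated in the sources used here. The counts of such genes may therefore be too low or not separate. The upstream sequences of 2 genes are shown because they stand for the opposite patterns in the data, Hoxd8 being counted in all 4 sarcomas and Hoxa10 in only 2. They are the 250 bases before the RefSeq start on GRCm38.p6, for Hoxd8 at chr2:74704365-74704614 on the plus strand and for Hoxa10 at chr6:52240855-52241104 on the minus strand, and capitals mark AGGTCA, the half-site bound by retinoic acid receptors.
Hoxd8: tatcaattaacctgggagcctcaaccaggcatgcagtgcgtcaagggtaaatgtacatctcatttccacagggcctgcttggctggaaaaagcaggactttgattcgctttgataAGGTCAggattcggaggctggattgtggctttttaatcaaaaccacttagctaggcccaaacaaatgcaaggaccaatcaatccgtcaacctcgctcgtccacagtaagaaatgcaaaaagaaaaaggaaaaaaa
Hoxa10: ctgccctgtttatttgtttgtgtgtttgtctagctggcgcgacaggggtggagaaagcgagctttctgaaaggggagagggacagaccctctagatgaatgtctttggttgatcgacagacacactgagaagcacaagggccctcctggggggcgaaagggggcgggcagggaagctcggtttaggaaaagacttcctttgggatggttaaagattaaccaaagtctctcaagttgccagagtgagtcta
The stretch before Hoxd8 held 6 CpG dinucleotides and that before Hoxa10 held 7. RefSeq windows of 300 bases (250 before to 50 after the start) were at hand for 22 of the 39 Hox genes and for 32851 promoters in all. The median window held 13.5 CpG for the Hox genes and 7 over all promoters. Read on both strands, AGGTCA was present in 7 of the 22 Hox windows (31.8%) and in 16.3% of all windows. TTTATG, a core form of the site of the caudal factors (Cdx), was present in 5 (22.7%) against 11.9%, and TGATNNAT, a site of Hox and Pbx proteins together, in 3 (13.6%) against 8.85%. These matches describe letters in the windows and were not related to any binding.

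The clusters also hold microRNA genes, whose mature products repress Hox transcripts. The mature forms from RefSeq are shown with the seed, bases 2 to 8, in capitals, because each family is set by its seed and sits at a fixed place in the clusters, miR-10 near paralog 4 and miR-196 next to paralog 9.
mmu-miR-10a-5p: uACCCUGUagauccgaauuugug
mmu-miR-10b-5p: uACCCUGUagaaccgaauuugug
mmu-miR-196a-5p: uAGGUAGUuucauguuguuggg
mmu-miR-196b-5p: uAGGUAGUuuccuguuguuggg
The miR-10 forms share the seed ACCCUGU and the miR-196 forms the seed AGGUAGU. The hairpin genes in the Hox clusters had between 0 and 5 counts in every sarcoma, and libraries of this kind do not measure the mature forms.

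The libraries held between 15259695 and 18134000 counts, and a count of 0 leaves room for up to 3 counts, or 0.165 to 0.197 CPM (counts scaled to a common library total). Such limits, and the intervals given with shares, cover counting error only. FPKM, the scale on which levels of different genes are compared here, is the count scaled to the exonic length of the gene and to the total count of the library. ATO 2 stood apart in that mitochondrial genes took 14.7% of its counts, against 1.98% to 2.59% in the other sarcomas. Of 10 mesenchymal markers, 9 or 10 reached an FPKM of 1 in each sarcoma. Their summed FPKM was 3215 in Ctl 1 and 1498 in Ctl 2, with 1712 in ATO 1 and 1032 in ATO 2. Markers of other cell types also differed between the sarcomas. The summed FPKM of 10 skeletal muscle markers was 7.17 in Ctl 1 and 126.0 in Ctl 2, with 14074 in ATO 1 and 1021 in ATO 2. For 8 adipocyte markers it was 13.7, 73.8, 373 and 1889 in the same order, and Adipoq, Plin1, Cidec and Lep had at most 3 counts in both Ctl sarcomas. For 9 osteoblast markers it was 2290, 280, 3000 and 320, for 8 endothelial markers 160, 1147, 109 and 236, and for 8 leukocyte markers between 168 and 338. For 8 chondrocyte markers it was 47.6 in ATO 1 and between 5.95 and 7.32 in the others, for 7 epithelial markers between 2.86 and 21.5, and for 8 neural and Schwann cell markers between 9.94 and 42.3. The part of these cell types in the Hox values was not tested.

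The sarcomas differed in how much of the Hox complement they transcribed, and Ctl 1 stood well below the other 3. Ctl 1 held 406 Hox counts in all, 23.2 CPM, whereas Ctl 2 held 3858 (214.7 CPM). ATO 1 held 4188 (230.9 CPM) and ATO 2 held 2120 (138.9 CPM). At an FPKM of at least 1, 1 of the 39 genes was transcribed in Ctl 1 and 23 in Ctl 2, with 24 in ATO 1 and 18 in ATO 2. A count of 0 was found for 25 genes in Ctl 1 and 6 in Ctl 2, with 5 in ATO 1 and 14 in ATO 2. With 1 library per sarcoma, a difference between single sarcomas has no replicate check.

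**Figure D1:**
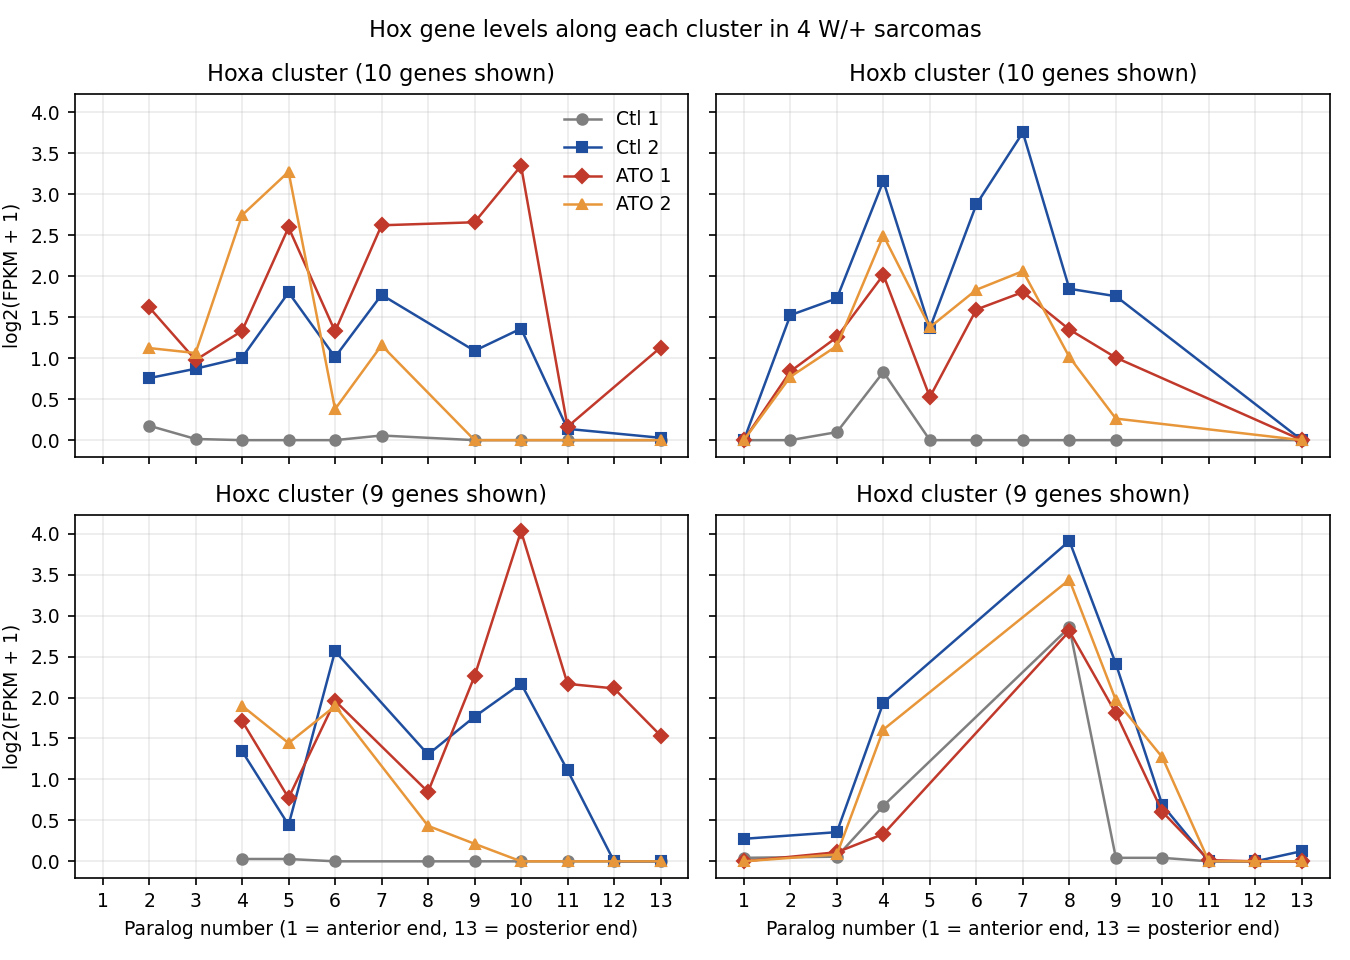
FPKM of 38 Hox genes in each sarcoma on a log2(FPKM + 1) scale, in 1 panel per cluster against paralog number, with a colour and marker for each sarcoma. Ctl 1 rises above an FPKM of 1 at Hoxd8 alone, ATO 1 reaches the last paralogs of clusters A and C, and ATO 2 ends earlier in both.

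By their counts the 39 genes fell into 6 patterns, with more than 3 counts taken as present. Present in all 4 sarcomas were 6 genes, among them Hoxa2, Hoxb3, Hoxb4, Hoxd4 and Hoxd8. Present in every sarcoma but Ctl 1 were 19 genes, which cover the middle of all 4 clusters with paralog numbers from 2 to 10. Another 5 genes, Hoxa9, Hoxa10, Hoxa11, Hoxc10 and Hoxc11, were present in Ctl 2 and ATO 1 alone. Present in ATO 1 alone were 3 genes (Hoxa13, Hoxc12 and Hoxc13) and in Ctl 2 alone 2 genes (Hoxd1 with 7 counts and Hoxd13 with 4). The other 4, Hoxb1, Hoxb13, Hoxd11 and Hoxd12, had at most 1 count in any sarcoma. No gene was present in Ctl 1 or ATO 2 and in no other sarcoma, and none was present in both ATO sarcomas and neither Ctl sarcoma.

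Hoxd8 (ENSMUSG00000027102), a trunk gene of cluster D whose upstream sequence is given above, was the only Hox gene at an FPKM of at least 1 in all 4 sarcomas. Its FPKM was 6.24 in Ctl 1 and 14.05 in Ctl 2, with 6.01 in ATO 1 and 9.84 in ATO 2. The groups overlapped, with a sarcoma of each group near 6 and the other well above it. Hoxd8 made up 73.6% of all Hox counts in Ctl 1 and 18% in Ctl 2, with 7.14% in ATO 1 and 19.4% in ATO 2. Its neighbour Hoxd9 had 1 count in Ctl 1 and 166, 97 and 95 in Ctl 2, ATO 1 and ATO 2, with its annotated start 6.89 kb from that of Hoxd8. Ctl 1 thus had 299 and 1 counts at these neighbours, whereas each of the other sarcomas had at least 95 at both.

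The other genes present in Ctl 1 were weak there. Hoxb4, which marks the hindbrain and neck and is also known from blood stem cells, was at FPKM 0.78 in Ctl 1 and 7.96 in Ctl 2, with 3.05 in ATO 1 and 4.65 in ATO 2. Hoxd4, its paralog in cluster D, had 0.60, 2.83, 0.26 and 2.05 in the same order. For Hoxd4 the lowest FPKM therefore lay in ATO 1. Hoxd8 had 299 counts in both Ctl 1 and ATO 1, so which of them was lower depended on the scaling. Hoxa2, which sets the identity of the second pharyngeal arch, had 4 counts in Ctl 1 (FPKM 0.13), against 0.69, 1.18 and 2.08 in Ctl 2, ATO 2 and ATO 1. Hoxb3 was at 0.07 in Ctl 1, against 1.22 to 2.32 elsewhere, and Hoxd3 had 3, 21, 6 and 4 counts in Ctl 1, Ctl 2, ATO 1 and ATO 2.

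The mid-trunk genes of cluster B were strongest in Ctl 2. Hoxb7 was at FPKM 0 in Ctl 1 and 12.51 in Ctl 2, with 2.50 in ATO 1 and 3.18 in ATO 2, and Hoxb6 had 0, 6.35, 2.02 and 2.57. Hoxb8 had 0, 2.60, 1.55 and 1.02, and Hoxb9, the last gene before Hoxb13 with their annotated starts 77.1 kb apart, had 0, 2.38, 1.01 and 0.20. For these 4 neighbours the control sarcomas thus held both the highest and the lowest value. By CPM, Hoxb7 was at least 112-fold higher in Ctl 2 than in Ctl 1, taking the 3 counts per library that a count of 0 allows, and 3.93-fold higher than in ATO 2. Hoxb2 and Hoxb5 also had 0 counts in Ctl 1, and between 38 and 118 and between 22 and 79 in the others. The genes of cluster B summed to an FPKM of 0.85 in Ctl 1 and 37.6 in Ctl 2, with 12.8 in ATO 1 and 15.2 in ATO 2.

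Hoxa3 to Hoxa5, Hoxc4 and Hoxc5 were strongest in ATO 2. Hoxa5, which acts in the neck and lung, was at FPKM 0 in Ctl 1 and 2.49 in Ctl 2, with 5.05 in ATO 1 and 8.69 in ATO 2. Hoxa4 had 0, 1.01, 1.52 and 5.71, and Hoxc5 had 0.02, 0.36, 0.71 and 1.72. ATO 2 was the highest sarcoma for each of these 3 genes and Ctl 1 the lowest. Hoxa3, a gene of the pharyngeal arches needed for the thymus and parathyroid, had 0.01, 0.83, 0.97 and 1.09. Hoxc4 had 0.02, 1.54, 2.28 and 2.73. These 5 genes were among the 6 Hox genes in which each ATO sarcoma had a higher FPKM than either Ctl sarcoma, which held for 12.8% of all tested genes. Hoxa6 was weaker, with 0, 1.02, 1.51 and 0.30, and there ATO 2 lay below Ctl 2. Hoxc6, which is known from the trunk and the forelimb base, had 0, 4.92, 2.89 and 2.72, so that Ctl 2 lay above both ATO sarcomas. Hoxa7 had 0.04, 2.42, 5.16 and 1.23, and Hoxc8 had 0, 1.47, 0.80 and 0.35.

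The posterior genes separated the ATO sarcomas from each other. Hoxa10 (ENSMUSG00000000938), which patterns the lumbar spine, the upper hindlimb and the uterus, had 0 counts in Ctl 1 and 92 in Ctl 2, with 545 in ATO 1 and 0 in ATO 2. Hoxc10 (ENSMUSG00000022484), a gene of the lumbar region and hindlimb, had 0, 120, 531 and 0, which made it the strongest Hox gene of ATO 1 at an FPKM of 15.34. The ATO group thus held the highest and the lowest value of both genes, with 0 also in Ctl 1. By CPM, ATO 1 was at least 153-fold higher than ATO 2 for Hoxa10 and at least 149-fold for Hoxc10, and 5.87-fold and 4.39-fold higher than Ctl 2. Hoxa9, known also as a leukemia gene, had 0, 113, 538 and 0 counts. Hoxc11 had 0, 42, 128 and 0 counts and Hoxa11 0, 4, 5 and 0. Hoxc9 was present in ATO 2 at 6 counts, against 105 in Ctl 2 and 167 in ATO 1.

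In clusters A and C transcription reached a different last gene in each of Ctl 2, ATO 1 and ATO 2. Hoxa13, which patterns the digits and the hindgut end, had 52 counts in ATO 1 (FPKM 1.19), 1 in Ctl 2 and 0 in Ctl 1 and ATO 2. Hoxc13, a gene of hair, nail and tail, had 85 counts in ATO 1 (FPKM 1.9) and 0 in the other sarcomas. Hoxc12 had 62 counts in ATO 1 (FPKM 3.32) and 0 in the others, at least 17.4-fold higher in ATO 1 than in ATO 2 and at least 20.5-fold higher than in Ctl 2. At an FPKM of at least 1, the last genes were Hoxa13, Hoxb9, Hoxc13 and Hoxd9 in ATO 1 and Hoxa10, Hoxb9, Hoxc11 and Hoxd9 in Ctl 2. In ATO 2 they were Hoxa7, Hoxb8, Hoxc6 and Hoxd10, and in Ctl 1 Hoxd8 was the last in cluster D while no gene of the other clusters reached this level. In ATO 2 the counts went from 54 at Hoxa7 to 0 at Hoxa9, whose start lies 9.24 kb further, and from 6 at Hoxc9 to 0 at Hoxc10, 9.64 kb further. Cluster D did not share this end, since Hoxd10 had an FPKM of 1.41 in ATO 2 and 0.03, 0.61 and 0.52 in Ctl 1, Ctl 2 and ATO 1. Hoxd9 had 0.03, 4.32, 2.50 and 2.91, and beyond Hoxd10 no gene of cluster D had more than 4 counts in any sarcoma.

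Grouped by position, the share of posterior transcripts ranged over most of the scale. Paralogs 9 to 13 (16 genes) made up 0.493% of the Hox counts in Ctl 1 (95% Wilson interval 0.135% to 1.78%, 2 of 406 counts) and 20.1% in Ctl 2 (18.9% to 21.4%). In ATO 1 they made up 54.3% (52.8% to 55.8%) and in ATO 2 6.98% (5.97% to 8.15%). The order was therefore ATO 1, Ctl 2, ATO 2 and Ctl 1, with the ATO sarcomas on either side of Ctl 2, and no intervals overlapped. Paralogs 4 to 8 (15 genes) made up 90.9%, 67.8%, 36.2% and 80.0% of the Hox counts in Ctl 1, Ctl 2, ATO 1 and ATO 2. Paralogs 1 to 3 (8 genes) made up 8.62%, 12.1%, 9.50% and 13%, a narrow range by comparison. The mean paralog number weighted by FPKM was 6.73 in Ctl 1 and 6.63 in Ctl 2, with 7.94 in ATO 1 and 5.69 in ATO 2, which gave 6.68 ± 0.067 (SD, n = 2) for the Ctl and 6.82 ± 1.59 (SD, n = 2) for the ATO sarcomas. The groups overlapped, and the value of Ctl 1, which rests largely on Hoxd8, was 3.32 without that gene.

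**Figure D2:**
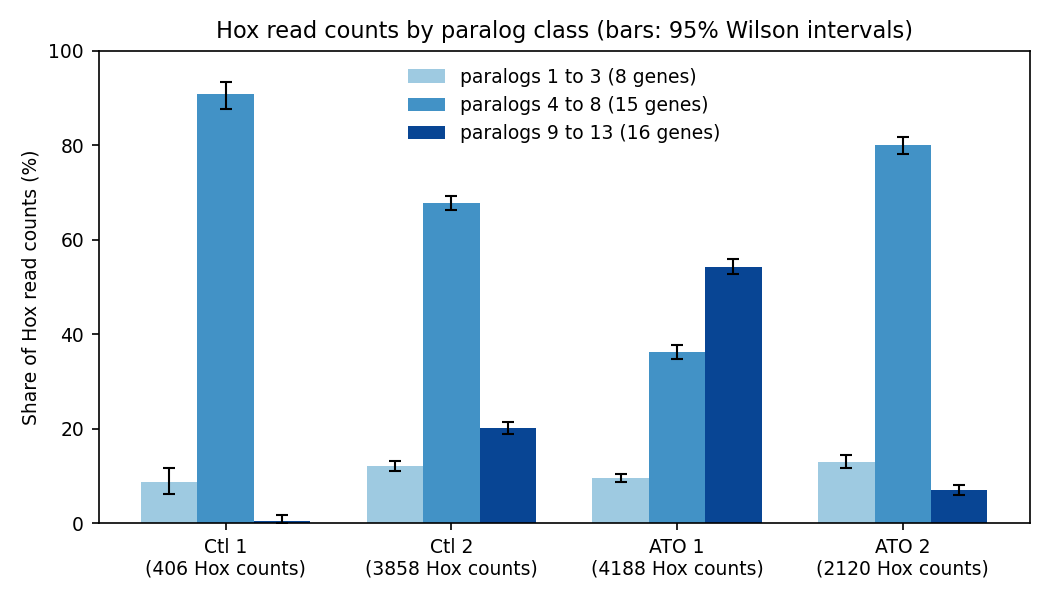
Share of the Hox read counts, in percent, taken by paralogs 1 to 3, 4 to 8 and 9 to 13 in each sarcoma, with 95% Wilson intervals for counting error as bars. The posterior class is largest in ATO 1 at 54.3% and smallest in Ctl 1 at 0.493%.

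The Hox profiles were also compared between pairs of sarcomas, as the root mean square difference in log2(FPKM + 1). Over the 39 Hox genes it was 1.45 between the Ctl sarcomas and 1.27 between the ATO sarcomas. Between the groups it was 1.58 for Ctl 1 and ATO 1, 1.16 for Ctl 1 and ATO 2, 0.960 for Ctl 2 and ATO 1 and 0.867 for Ctl 2 and ATO 2. The nearest pair was thus Ctl 2 and ATO 2, and the farthest was Ctl 1 and ATO 1. The mean was 1.36 within the groups and 1.14 between them for the Hox genes, whereas over all tested genes it was 0.971 within and 1.10 between. Pearson correlations of the pairs across the 39 genes, which share a library in each sarcoma and are not independent, ranged from 0.21 (Ctl 1 and ATO 1) to 0.70 (Ctl 2 and ATO 2). These distances are descriptions, and 2 sarcomas against 2 allow no exact two-sided permutation p below 0.333.

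**Figure D3:**
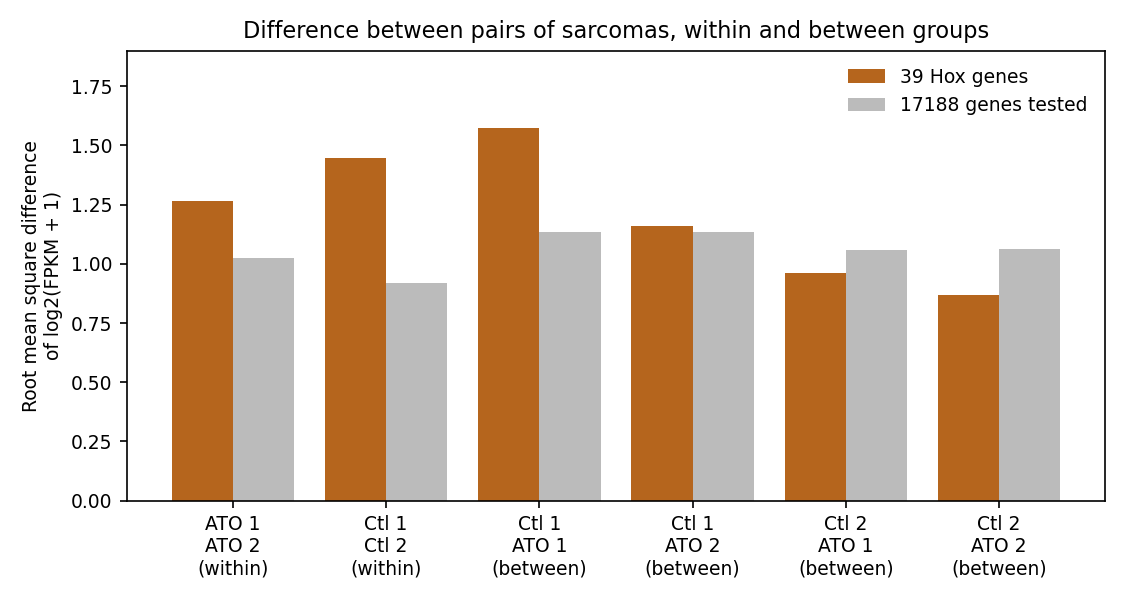
Root mean square difference in log2(FPKM + 1) for each of the 6 pairs of sarcomas, over the 39 Hox genes and over all tested genes. For the Hox genes both pairs of the same group (1.45 and 1.27) lie above both pairs of Ctl 2 with an ATO sarcoma (0.960 and 0.867). Of the pairs of Ctl 1 with an ATO sarcoma, that with ATO 1 is the largest of all (1.58) and that with ATO 2 is 1.16.

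edgeR's quasi-likelihood test of ATO against Ctl covered 17188 genes, of which 0 (0.0%) passed a Benjamini-Hochberg adjusted p of 0.05, the smallest being 0.570, while 1463 (8.51%) had an unadjusted p under 0.05. DESeq2 called 714 genes. Of the 39 Hox genes 28 passed the filter on low counts, and the other 11 were Hoxa11, Hoxa13, Hoxb1, Hoxb13, Hoxc12, Hoxc13, Hoxd1, Hoxd3, Hoxd11, Hoxd12 and Hoxd13. No tested Hox gene passed the adjusted threshold in edgeR or DESeq2, and in edgeR 0 of 28 had an unadjusted p under 0.05, while DESeq2 had 2 of 28 (Hoxa2 and Hoxc5) beside 12.5% of all genes tested. Limma on log2(FPKM + 1) and edgeR with the replicate number as a block each had 2 of 28, beside 7.92% and 6.78% of all genes. Without a filter 6 of 36 had such a p, beside 9.7%. They included Hoxa13, Hoxc12 and Hoxc13, which the filter had removed and which had more than 3 counts in ATO 1 alone, so their p rests on that library. Without Ctl 2, where Ctl 1 stands alone and is assumed to vary like the ATO sarcomas, 18 of 28 had one, beside 7.35% of all genes. The p-values measure only the spread between these sarcomas. The smallest adjusted p of a Hox gene was 0.610 in the main edgeR fit, for Hoxa2, and 0.088 in edgeR without a filter.

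The fitted level was higher in ATO for 21 of the 28 genes and lower for 7, while 49.2% of all tested genes were higher. The median log2 fold change was 0.94 for the Hox genes and -0.016 for all tested genes. With limma on log2(FPKM + 0.1) and log2(FPKM + 1), 26 and 24 of the 28 were higher. Without Ctl 1 the edgeR median of the Hox genes was -0.04 (0.058 over all tested genes) and 14 of 28 Hox genes were higher. Without ATO 1 the Hox median was 0.44 (-0.133 over all tested genes), and without ATO 2 it was 1.09 (-0.078). Without Ctl 2 it was 7.80 (0.110 over all tested genes) and all 28 Hox genes were higher. In the comparison without Ctl 2, 16 of the genes had 0 counts in the Ctl sarcoma that was left, and with these taken at the 3 counts per library that a count of 0 allows the median ratio was 4.95 on the log2 scale. Every one of the 28 genes was lower in Ctl 1 than in Ctl 2, and 23 had their lowest value of the 4 sarcomas in Ctl 1 alone, both by TMM-normalized CPM. By cluster, 9 of 9 tested genes were higher in ATO in A, 4 of 8 in B, 6 of 7 in C and 2 of 4 in D, with medians of 2.23, 0.05, 1.73 and 0.29. Without Ctl 1 these were 9 of 9, 0 of 8, 4 of 7 and 1 of 4, with medians of 1.38, -0.89, 0.74 and -0.44. Cluster A was thus the only cluster with every tested gene higher in ATO in both fits, while without ATO 1 it was higher for 6 of 9 with a median of 0.48.

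The spread of the Hox genes within the groups was wide. The biological coefficient of variation, the relative spread between sarcomas of the same group that edgeR estimates, had a median of 123% over the 28 Hox genes and 55.1% over all tested genes. It was above 100% in 20 of the 28, against 4.76% of all tested genes. It was smallest for Hoxd8 at 53.4% and largest for Hoxc10 at 199.95%. The standard error (SE) was derived from edgeR's test, as the size of the log2 fold change over the square root of F. It exceeded the size of the log2 fold change in 21 of the 28, which restates the test and does not measure the spread separately. For Hoxd8 the TMM-normalized CPM was 25.3 ± 13.6 in Ctl and 24.7 ± 11.7 in ATO (SD, n = 2 each), which is -0.04 on the log2 scale with an SE of 0.62 (edgeR adjusted p = 0.993). For Hoxa10 it was 2.32 ± 3.28 in Ctl and 14.97 ± 21.2 in ATO, which is 2.69 on the log2 scale with an SE of 2.95 (edgeR adjusted p = 0.825). The value of Hoxa10 rested on ATO 1, since without it the gene had 0 counts in ATO. For Hoxb7 it was 8.74 ± 12.4 in Ctl and 4.93 ± 1.53 in ATO, and the fitted difference of -0.83 on the log2 scale (SE 2.17, edgeR adjusted p = 0.939) was 9.35 without Ctl 2. With 0 counts of Hoxb7 in Ctl 1, that fitted value depends on the prior count.

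By TMM-normalized CPM each ATO sarcoma was higher than either Ctl sarcoma in 7 of the 28 genes, against 19.7% of all tested genes, a share of 7 in 28 being near that background. They included Hoxa2, Hoxa3, Hoxa4, Hoxa5, Hoxc4 and Hoxc5. Hoxa3 overlaps Hoxa4 and Hoxa5 on the same strand in the annotation, so their values may not be separate. On FPKM, without TMM factors, the 6 genes named here met the same condition, against 12.8% of all tested genes. Hoxa2 had a TMM-normalized CPM of 0.659 ± 0.635 in Ctl and 3.12 ± 0.789 in ATO (SD, n = 2 each), a log2 fold change of 2.23 (SE 1.01). Hoxc5 was fitted 3.01 higher on the log2 scale (SE 1.44) and Hoxa4 3.19 higher (SE 1.92), at an edgeR adjusted p of 0.628 and 0.683. Each ATO sarcoma was lower than either Ctl sarcoma in 0 of the 28, against 20.2% of all tested genes. Among the untested genes Hoxd1, with 1 and 7 counts in Ctl and 0 in both ATO sarcomas, lay below. The summed skeletal muscle and adipocyte markers were also higher in each ATO sarcoma than in either Ctl sarcoma, and their part in these values was not tested.

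**Figure D4:**
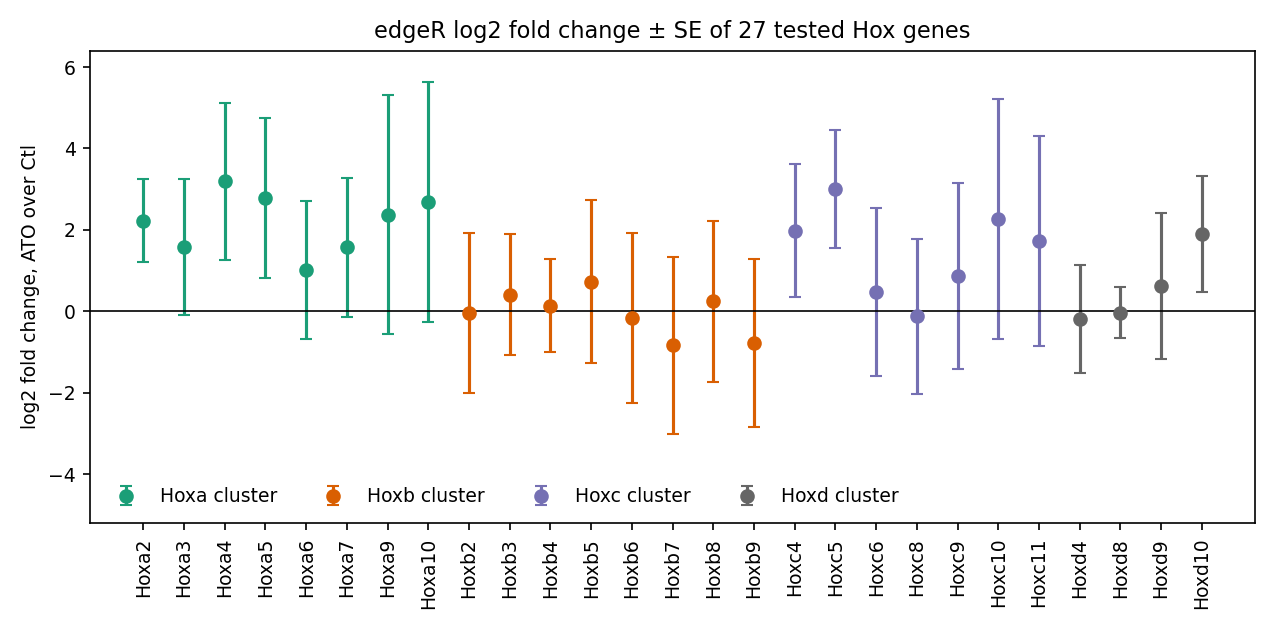
Fitted log2 fold change (ATO against Ctl) of 27 tested Hox genes with its standard error as a bar, by cluster and paralog number. The values run from -0.83 (Hoxb7) to 3.19 (Hoxa4), and no gene passed an adjusted p of 0.05.

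Several groups of genes act with, above or beside the Hox genes, and none of their members passed an adjusted p of 0.05 in edgeR. Of 9 Hox cofactors (Pbx, Meis and Pknox proteins, which bind DNA together with Hox proteins) 3 were fitted higher and 6 lower in ATO, with a median log2 fold change of -0.11. All 9 had more than 3 counts in every sarcoma, Ctl 1 included. Meis2 had an FPKM of 3.13 in Ctl 1 and between 0.47 and 0.99 in the others, and Pbx3 6.17 and between 1.47 and 3.39. Ctl 1, with the fewest Hox transcripts, had the highest FPKM of 4 of the 9 cofactors, and the share of all genes highest there was not counted. Pknox2 had its highest FPKM in ATO 1 (2.56, against 0.13 to 0.41).

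Of 18 Polycomb repressors, which keep silent Hox genes closed, 8 were fitted higher and 10 lower in ATO (median -0.21). Of the 18, 0 higher and 1 lower had an unadjusted edgeR p under 0.05, beside 8.51% of all tested genes. That gene was Cbx6, with FPKM values of 21.45 and 16.34 in Ctl against 4.59 and 4.94 in ATO (-1.70 on the log2 scale, SE 0.42, edgeR adjusted p = 0.570). Cbx2 had 4.13 and 2.24 in Ctl and 0.74 and 1.05 in ATO. By FPKM each ATO sarcoma was lower than either Ctl sarcoma for 7 of the 18, against 29.6% of all tested genes, among them Pcgf2 with 13.33 and 10.46 against 7.08 and 4.42. Cbx7 had 3.70, 4.59, 11.70 and 3.87 in Ctl 1, Ctl 2, ATO 1 and ATO 2. Of 11 activators of Hox loci (Kmt2 and Kdm6 enzymes and their partners) 4 were fitted higher and 7 lower (median -0.22), and all 11 had an FPKM of at least 1 in every sarcoma. Kdm6b, a demethylase that removes the Polycomb mark, had 14.92, 26.03, 7.03 and 9.70, and Men1, a partner of the Kmt2 methylases, 22.2, 12.09, 8.23 and 7.14. Zfp335 had 11.3, 9.83, 6.27 and 4.2 and Ash2l 7.89, 8.02, 5.48 and 3.2.

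Retinoic acid, a vitamin A product, activates anterior Hox genes through its nuclear receptors. Of 14 tested genes of its pathway 7 were fitted higher and 7 lower in ATO (median -0.28). Of the 14, 1 higher and 0 lower had an unadjusted edgeR p under 0.05, beside 8.51% of all tested genes. Rxrg, a partner receptor, had FPKM values of 0.05 and 0.19 in Ctl against 3.94 and 3.88 in ATO (5.25 on the log2 scale, SE 0.95, edgeR adjusted p = 0.570). Rara, a receptor for the acid itself, had 14.13 and 26.27 in Ctl and 7.69 and 7.09 in ATO. Cyp26b1, which degrades retinoic acid, had 2.26, 6.61, 29.76 and 4.91 in Ctl 1, Ctl 2, ATO 1 and ATO 2. Stra6, a membrane receptor for the retinol carrier, had 34.55 in Ctl 1 and between 0.09 and 0.76 in the others. Crabp1, a retinoic acid binding protein of the neural crest that was singled out after its values were seen, had 485.19 in Ctl 1 and 0.14 in Ctl 2, with 0 in ATO 1 and 2.70 in ATO 2. Ctl 1, the sarcoma low in Hox transcripts, was thus the highest for Stra6 and Crabp1.

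Other transcription factors also mark a body region without being Hox genes. Of 16 limb and regional factors 8 had their highest FPKM in Ctl 1, against 2 or 3 in each of the other sarcomas. Ctl 1 was also the highest for 8 of 10 mesenchymal markers and 6 of 11 Hox activators. It was the highest for 0 of 10 skeletal muscle markers. The share of all genes highest in Ctl 1 was not counted. Of 13 tested limb and regional factors 4 were fitted higher and 9 lower in ATO (median -0.88). Pitx1, which acts in the hindlimb and the first pharyngeal arch, was at FPKM 19.53 in Ctl 1 and 0.10 in Ctl 2, with 0.37 in ATO 1 and 0.22 in ATO 2. Prrx2, a factor of limb and facial mesenchyme, had 38.95, 1.28, 2.14 and 2.54, and Emx2, a factor of forebrain, urogenital tract and shoulder blade, 6.10, 1.19, 0.26 and 0.85. Ctl 1 was the highest sarcoma in these 3 genes, and Ctl 2 was the lowest for Pitx1 and Prrx2. Pax1, of the sclerotome and pharyngeal pouches, had 17, 112, 9 and 0 counts. Tbx5 and Tbx4, the factors of the forelimb and the hindlimb, were singled out after their values were seen. Tbx5 had 0, 0, 9 and 55 counts and Tbx4 15, 42, 27 and 0 counts. Neither reached an FPKM of 1 in any sarcoma, the highest being 0.77 for Tbx5 in ATO 2 and 0.69 for Tbx4 in Ctl 2. Their relation to the Hox values was not tested.

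Of 16 craniofacial factors 4 had their highest FPKM in Ctl 1 and 8 in ATO 1, with no share of all genes counted beside them. Of these 16, 5 were tested, with 1 fitted higher and 4 lower in ATO (median -2.28). Of the 5, 0 higher and 1 lower had an unadjusted edgeR p under 0.05, beside 8.51% of all tested genes. Msx1, a factor of facial and limb mesenchyme, had FPKM values of 8.99 and 3.84 in Ctl against 1.35 and 0.87 in ATO (-2.28 on the log2 scale, SE 0.67, edgeR adjusted p = 0.570). Six2 had 4.16, 0.74, 0.44 and 0.28 in Ctl 1, Ctl 2, ATO 1 and ATO 2. Lhx6, of the tooth-bearing arch mesenchyme, had 3, 10.33, 0.63 and 2.13, and its partner Lhx8, singled out after its values were seen, had 38.15, 0.26, 0.24 and 3.99. Dlx5, which acts in the lower jaw, the limb ridge and bone-forming cells, had 0.18, 1.48, 22.93 and 0, and its neighbour Dlx6, singled out in the same way, had 252 counts in ATO 1 and 0 in the other sarcomas. ATO 1 also had the highest osteoblast marker sum, and their relation was not tested. Of 10 caudal factors and posterior signals only Gdf11 and Gbx2 passed the filter, both fitted lower in ATO (median -0.67). Gdf11, a signal that activates posterior Hox genes, had 4.27, 3.93, 2.19 and 1.63, and Gbx2 had between 0.29 and 0.79. Cdx1, Cdx2 and Cdx4, the caudal activators of Hox genes in the embryo, had at most 2 counts in any sarcoma.

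**Figure D5:**
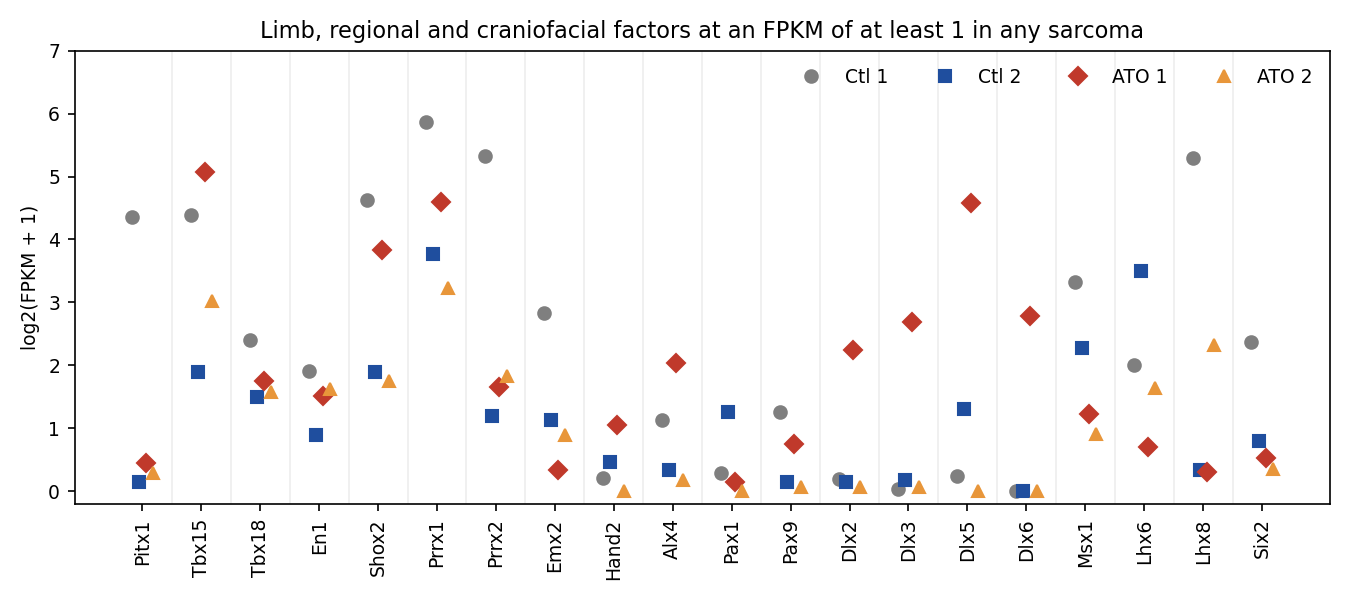
Level of the limb, regional and craniofacial factors that reached an FPKM of 1 in any sarcoma, as log2(FPKM + 1) with a marker for each sarcoma. Pitx1, Prrx2 and Lhx8 stand high in Ctl 1, and Dlx5 and Dlx6 in ATO 1.

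The clusters also hold long noncoding genes, some of which act on the Hox genes beside them. Of 16 noncoding genes measured, microRNA hairpins included, 7 were tested, with 6 fitted higher and 1 lower in ATO (median 1.14). Hotairm1, in cluster A, had 34, 62, 120 and 53 counts in Ctl 1, Ctl 2, ATO 1 and ATO 2. Halr1 had 10, 11, 20 and 31 counts. Hoxaas2 had 14, 26, 64 and 14 counts and Hoxaas3 had 4, 22, 36 and 21. Hotair, which lies in cluster C between Hoxc11 and Hoxc12, was singled out after its values were seen and had 0, 5, 30 and 0 counts. Its counts were at 0 in the 2 sarcomas that had 0 counts of Hoxc11, and highest in the sarcoma with the most Hoxc11 and Hoxc12. Hoxb3os had 0, 109, 73 and 43 counts and Hoxb5os 0, 46, 18 and 27, with 0 in Ctl 1 and the highest value in Ctl 2, as was the case for Hoxb7. Since these genes overlap Hox genes or lie close to them, their reads and those of the Hox genes may not be separate.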

How the data were processed

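RNA-seq was analysed in 2 ATO and 2 Ctl sarcomas of W/+ mice, with groups taken from the treatment label of each sample. The authors deposited raw read counts per gene without normalization, made with HISAT2 2.0.1 after cutadapt 1.9.1 and FastQC 0.10.1 (versions from the submitters' processing notes) and HTSeq. The authors also deposited FPKM, which equalled the count scaled to exonic length and to the total count to within 0.005. The deposited exonic gene sizes were used as given. GRCm38 is the build named in the methods, but of the 52073 genes also in GENCODE M21 on GRCm38 just 1472 (2.83%) carry its position, so the positions printed are those of M21, matched by gene identifier. Rows with no symbol (2639 genes, up to 0.171% of a library) stayed in the library totals.

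The count test was that of edgeR 4.0.16, run in R 4.3.3 after filterByExpr and TMM scaling (factors 1.09 and 1.11 for the Ctl and 1.01 and 0.822 for the ATO sarcomas) with trended dispersion and no robust estimation, with Benjamini-Hochberg adjustment over all 17188 genes tested and a threshold of 0.05. Total counts were 17465090, 17971675, 18134000 and 15259695 in the same order, and the common biological coefficient of variation was 62.5%. Detection was set at an FPKM of 1. The alternatives tried were no filter, a filter at a mean FPKM of 1, DESeq2 1.42.0 and DESeq2's size factors within edgeR, limma 3.58.1 on log2(FPKM + 0.1) and log2(FPKM + 1), a replicate block, no mitochondrial genes and each sarcoma left out. Descriptions and figures were made with Python 3.11.15, pandas 2.3.3, numpy 2.4.6 and matplotlib 3.10.9.

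The members and the lists were chosen with earlier results of these data known. The Hox genes described singly were the 10 with the smallest unadjusted p, the 3 with the highest FPKM in each sarcoma and the last gene of each cluster at an FPKM of at least 1, and of each pathway list up to 4 genes with the smallest unadjusted p were named. Other genes are named for the count they belong to or as singled out after their values were seen. Of the noncoding genes, Hotairm2 and Mira were not matched by symbol. The values of some genes of the members and lists are not reported here singly, while these genes stay in the counts and medians.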

Additional observations from a re-analysis of the deposited data

How the results depend on the processing

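Past the threshold were 0 genes in edgeR, 714 with DESeq2 (560 higher and 154 lower in ATO) and 541 without a filter (454 and 87). No Hox gene was called under any alternative run. Of the Hox genes with an unadjusted p under 0.05 without a filter, Hoxa13, Hoxc12 and Hoxc13 were present in ATO 1 alone. The number of Hox genes with an unadjusted p under 0.05 was 18 of 28 without Ctl 2 (7.35% of all tested genes), 6 of 36 without a filter (9.7%), 2 of 28 each with DESeq2 (12.5%), limma on log2(FPKM + 1) (7.92%) and the replicate block (6.78%), and 0 otherwise.

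The median Hox log2 fold change of 0.94 ranged from -0.039 (without Ctl 1) to 7.80 (without Ctl 2) when each sarcoma was left out, and the number of genes fitted higher from 14 to 28. With limma it was 1.25 on log2(FPKM + 0.1) with 26 genes higher and 0.44 on log2(FPKM + 1) with 24, where the median of all genes was -0.27 and -0.18. The share of higher genes was larger with both. Among alternatives that kept all sarcomas, the replicate block moved the median most, to 1.98 with 26 of 28 higher. The labels do not say that replicate numbers pair sarcomas, same-numbered sarcomas had a deviation correlation of 5.0e-05, and the block gave 0 calls.

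Of 20 singly described Hox genes, 9 kept their direction under every alternative and 11 did not. When each sarcoma was left out in turn, the log2 fold change ranged from -8.31 to 10.96 for Hoxa10, -8.69 to 10.92 for Hoxc10 and -7.19 to 8.88 for Hoxc11, the lowest without ATO 1. It ranged from -0.73 to 2.60 for Hoxb4, -1.83 to 9.35 for Hoxb7, -0.75 to 8.93 for Hoxb8, -0.52 to 9.95 for Hoxc6 and -0.37 to 6.75 for Hoxd9, the lowest without Ctl 1. It ranged from -2.11 to 7.76 for Hoxb9 (lowest without ATO 1), and from -2.56 to 1.31 for Hoxd4 and -0.61 to 0.65 for Hoxd8 (lowest without ATO 2). The highest value of each of the 11 came without Ctl 2. Hoxb7 was at 1.38 and 0.057 with limma at 0.1 and 1 and at 1.9 with the block, and Hoxb9 at 0.21 with limma at 0.1 and 0.96 with the block. Values beyond 7 in size compare with sarcomas at 0 counts and depend on the prior count. The cause was not tested.

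The number of Hox genes present in Ctl 1 was 1 at an FPKM of 1, 4 at 0.5 and 6 above 3 counts. The weighted paralog number of Ctl 1 moved from 6.73 to 5.73 on log2 values and 3.32 without Hoxd8, and that of Ctl 2 from 6.63 to 6.49 by CPM, 6.47 on log2 values and 6.37 without its top gene. On FPKM and on CPM without TMM factors 6 Hox genes had both ATO above both Ctl sarcomas, and 7 with DESeq2 size factors. With 2 sarcomas per group and a Hox spread above 100%, changes smaller than the spread between these sarcomas were not detectable.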
